A study of Mus musculus with 12 samples.

Results

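The genes described here are Fgf7, Igfbp3 and Clec11a, which encode secreted growth factors or growth factor carriers made largely by stromal cells. They are the rows of these 3 symbols among the 479 genes of a table from whole thymus. The genes were chosen by their higher level in thymus without the receptor tyrosine kinases Axl and Mer, so the difference between the genotypes is given below as a description, with no test.

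The thymus is built from epithelial cells, on which T cells mature, and from mesenchymal fibroblasts and vessels that feed and support them. Fgf7, also called keratinocyte growth factor, is secreted by mesenchymal cells and acts on epithelial cells through the IIIb form of the receptor Fgfr2, and thymic epithelium grows in response to it. Igfbp3 binds insulin-like growth factors outside the cell, carries them in plasma and limits their access to the receptor Igf1r. Clec11a, known as stem cell growth factor or osteolectin, is a secreted protein of the C-type lectin family, found in bone marrow stroma, that promotes growth of blood progenitors and bone formation. Axl and Mer (gene name Mertk) are receptors with which macrophages recognise and engulf dying cells, of which the thymus produces many.

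RNA was sequenced from the whole thymus of 12 mice at 1 month of age. Of these, 6 were WT and 6 were Axl-/-Mertk-/- mice, labelled AMDKO, with 3 males and 3 females in each genotype. The mutant alleles of both genes were carried in the germline, so every cell of the mutants had them, and the mutant lines had been backcrossed to C57BL/6 and were housed apart from WT. Values are FPKM (fragments per kilobase of exon, relative to all mapped reads), a unit scaled to transcript length and library depth, and each mouse is 1 replicate, with the name and number of its label (WT_213, AMDKO_219). Depth was not listed with the values and was estimated from the steps between low values at 18.8 to 24.5 M reads in WT (median 23.3 M) and 19.3 to 23.8 M reads in Axl-/-Mertk-/- mice (median 21.3 M). Axl itself averaged 13.3 ± 1.83 FPKM in WT mice and 2.17 ± 0.199 in the mutants (SD, n = 6), with no overlap, and Mertk is not among the 479 genes. The table held none of 12 thymocyte markers, a list added after the values were seen, and none of 16 markers of thymic epithelium, so the labelled tissue could not be checked from it. A final b stands in the title of male WT_210 and of no other mouse, and no source used here explains it.

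The 250 bases before the start of each gene are shown because the 3 genes shared a direction while lying on different chromosomes. The sequences are those of RefSeq on GRCm38.p6 (mm10), 5′ to 3′ on the strand of the gene, and 3 of the 3 genes matched. For Clec11a the RefSeq start lies slightly before the GENCODE start used for its position below. Those of Fgf7 are chr2:126034408-126034657 on the plus strand, those of Igfbp3 chr11:7213924-7214173 on the minus strand and those of Clec11a chr7:44306960-44307209 on the minus strand. Capitals mark matches, on either strand, to the 4 promoter motifs searched, and overlapping matches run together.
Fgf7: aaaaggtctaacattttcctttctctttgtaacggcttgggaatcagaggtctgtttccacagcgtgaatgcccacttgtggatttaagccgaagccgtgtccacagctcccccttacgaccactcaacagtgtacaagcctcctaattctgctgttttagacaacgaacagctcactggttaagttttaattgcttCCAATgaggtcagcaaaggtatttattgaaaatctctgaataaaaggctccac
Igfbp3: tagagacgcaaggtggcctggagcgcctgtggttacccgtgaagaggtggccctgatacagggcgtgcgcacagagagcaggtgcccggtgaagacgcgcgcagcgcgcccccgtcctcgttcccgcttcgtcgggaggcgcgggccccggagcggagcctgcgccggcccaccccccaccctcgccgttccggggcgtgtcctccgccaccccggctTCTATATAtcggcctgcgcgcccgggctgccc
Clec11a: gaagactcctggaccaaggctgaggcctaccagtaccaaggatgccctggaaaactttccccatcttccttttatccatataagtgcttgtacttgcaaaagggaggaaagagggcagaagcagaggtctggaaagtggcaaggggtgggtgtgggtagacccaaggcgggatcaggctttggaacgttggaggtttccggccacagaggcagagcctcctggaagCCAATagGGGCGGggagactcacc
The Igfbp3 sequence was rich in G and C (73.2%) and held 32 CpG dinucleotides, against a median of 52.4% and 6 over 32851 mouse promoters of the same length. Fgf7 had 43.6% G and C with 6 CpG, and Clec11a 55.6% with 4. TATANA, the letters searched for a TATA box, matched 3 times in Igfbp3, at 1 overlapping place, and was found in 22.6% of all promoters. The CCAAT box stood once in Fgf7 and once in Clec11a, and in 33.8% of all promoters. The GC box, searched as GGGCGG, stood once in Clec11a, and in 32.7% of all. The E-box CACGTG, found in 6.02%, was in none of the 3 sequences. No motif was found in all 3. These matches describe the letters and were not tested for use in the thymus.

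Fgf7 was low in WT thymus and about 3.5 times as high in Axl-/-Mertk-/- thymus. In WT females it was 0.049 FPKM in WT_213, 0.099 in WT_214 and 0.062 in WT_215, and in WT males 0.107 in WT_210, 0.097 in WT_211 and 0.064 in WT_212. In Axl-/-Mertk-/- females it was 0.307 in AMDKO_219, 0.164 in AMDKO_220 and 0.330 in AMDKO_231, and in Axl-/-Mertk-/- males 0.399 in AMDKO_202, 0.174 in AMDKO_203 and 0.301 in AMDKO_264. Every mutant lay above every WT mouse, and the lowest mutant was 1.53 times the highest WT mouse. The mutants were uneven, with AMDKO_220 and AMDKO_203 near the WT range and the other 4 between 0.301 and 0.399. The mean was 0.0797 ± 0.0242 in WT and 0.279 ± 0.0922 in Axl-/-Mertk-/- mice (SD, n = 6), a ratio of 3.50. These values rest on few reads: 3 to 7 in each WT mouse and 9 to 23 in each mutant, 29 and 98 in all. The exact 95% Poisson interval was 19.4 to 41.6 reads for the 29 and 79.6 to 119 for the 98. For single mice the intervals met, as for male WT_210 with 7 reads (2.81 to 14.4) and female AMDKO_220 with 9 (4.12 to 17.1). Such intervals cover counting error only. Since all cells of the thymus entered the RNA, more cells that make Fgf7 and more of its RNA per cell cannot be told apart, and the same holds for the other two genes.

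Igfbp3 was the most abundant of the 3 per length of transcript, and was 1.81 times as high in Axl-/-Mertk-/- thymus. In WT females it was 1.12 FPKM in WT_213, 1.54 in WT_214 and 1.504 in WT_215, and in WT males 2.07 in WT_210, 1.74 in WT_211 and 1.91 in WT_212. In Axl-/-Mertk-/- females it was 2.89 in AMDKO_219, 2.77 in AMDKO_220 and 3.33 in AMDKO_231, and in Axl-/-Mertk-/- males 3.12 in AMDKO_202, 2.71 in AMDKO_203 and 3.08 in AMDKO_264. The genotypes did not overlap, and the lowest mutant was 1.31 times the highest WT mouse. The mean was 1.65 ± 0.336 in WT and 2.98 ± 0.236 in mutants (SD, n = 6). The SD was 20.4% of the mean in WT and 7.93% in mutants, and the WT SD takes in a gap between the sexes, described below. Within males it was 0.164 FPKM in WT and 0.224 in mutants, and within females 0.233 and 0.298 (n = 3). Between 63 and 124 reads stood behind each WT value and between 128 and 194 behind each mutant value.

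Clec11a showed the smallest difference, a ratio of 1.44, and its genotypes overlapped. In WT females it was 0.534 FPKM in WT_213, 0.597 in WT_214 and 0.512 in WT_215, and in WT males 0.793 in WT_210, 0.462 in WT_211 and 0.720 in WT_212. In Axl-/-Mertk-/- females it was 0.663 in AMDKO_219, 0.821 in AMDKO_220 and 0.794 in AMDKO_231, and in Axl-/-Mertk-/- males 0.902 in AMDKO_202, 0.899 in AMDKO_203 and 1.14 in AMDKO_264. Of the 6 mutants, 5 lay above every WT mouse. Female AMDKO_219 lay below males WT_210 and WT_212, and female AMDKO_231 (0.794) stood level with male WT_210 (0.793). The mean was 0.603 ± 0.129 in WT and 0.869 ± 0.157 in mutants (SD, n = 6). Reads per mouse were 21 to 38 in WT and 30 to 47 in mutants. Their 95% Poisson intervals overlapped except between AMDKO_264 with 47 reads (34.5 to 62.5) and both WT_211 with 21 (13.0 to 32.1) and WT_214 with 22 (13.8 to 33.3). For the reads summed over the mice of a genotype, the interval was 138.0 to 189.0 in WT and 191.0 to 250.01 in mutants. These sums leave out the spread between mice, and nothing is read from them, as the same contrast chose the gene.

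**Figure D1:**
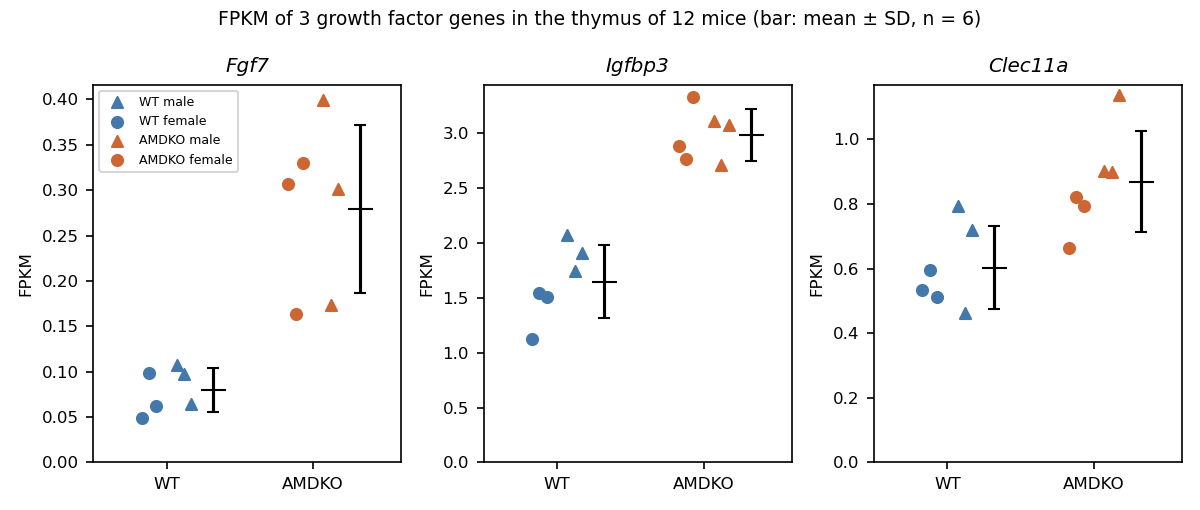
FPKM of Fgf7, Igfbp3 and Clec11a on the vertical axes for each WT (blue) and Axl-/-Mertk-/- (AMDKO, orange) mouse, with circles for females, triangles for males and bars for mean ± SD (n = 6). Every mutant stands above every WT mouse for Fgf7 and Igfbp3, and 5 of 6 do for Clec11a.

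**Figure D2:**
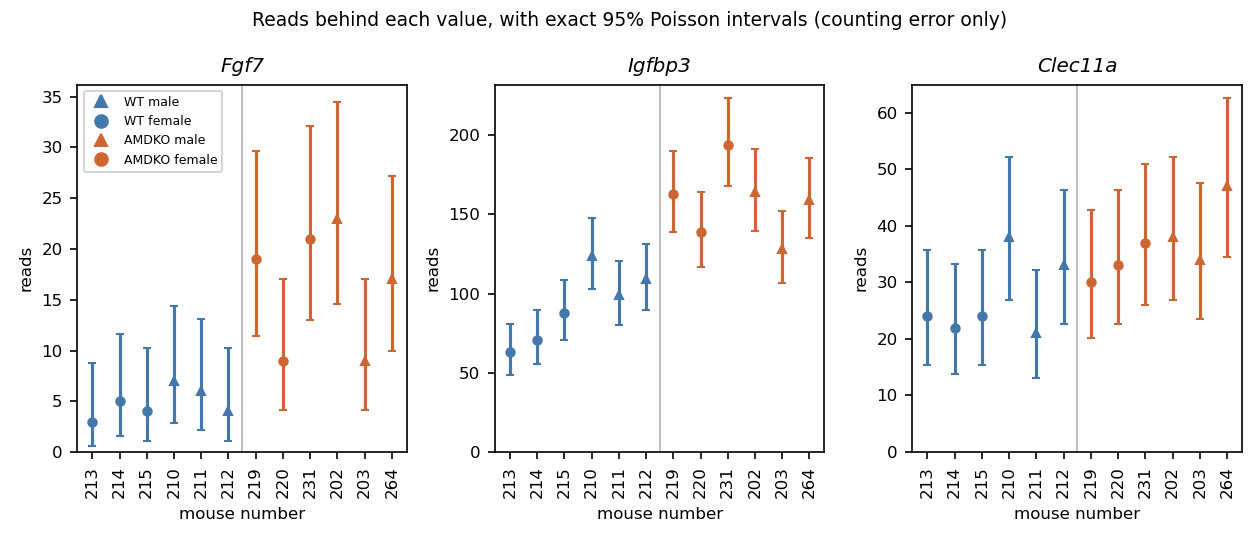
Reads behind each value, by mouse number, with exact 95% Poisson intervals as bars, in WT (blue) and Axl-/-Mertk-/- (AMDKO, orange) mice, with circles for females and triangles for males. Fgf7 has 3 to 23 reads per mouse with wide bars, and Igfbp3 has 63 to 194.

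In each of the 12 mice Igfbp3 was the highest and Fgf7 the lowest of the 3 in FPKM. The order of the ratios was different, with Fgf7 first and Clec11a last. Among the 166 genes with a higher mean in mutants, Fgf7 ranked 8, Igfbp3 56 and Clec11a 149 by the ratio of means. The log2 ratio was 1.81 for Fgf7, 0.86 for Igfbp3 and 0.53 for Clec11a, beside a median of 0.70 and a lowest value of 0.49 among these 166, so Clec11a stood near the lower edge of the table. Groups that did not overlap, with mutants higher, were found for 2 of the 3 genes and for 12.7% of the 479. With an adjusted p under 0.05 and the mutants higher in limma, 3 of the 3 and 33.2% of the 479 were called, and nothing is read from this, as the same contrast chose the genes. With a log2 difference beyond 0.5 as well, none of the 3 was called, beside 2.92% of the table. The table's log2 scale carries a constant of 5 FPKM, which leaves little of the difference of a low gene, 0.055 for Fgf7, 0.26 for Igfbp3 and 0.067 for Clec11a.

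Males and females were compared because the 3 genes were not picked from the table by sex, although the authors' own test, which may have shaped the table, took sex into account. In mutants, each male was above each female for Clec11a, with means of 0.979 ± 0.136 and 0.759 ± 0.0845 (SD, n = 3), while WT males (0.658 ± 0.174) and WT females (0.548 ± 0.0441) overlapped. The male minus female difference on log2(FPKM + 5), with genotype as covariate, was 0.041 (SE 0.017) for Clec11a, with an adjusted p of 0.31 in limma. For Igfbp3 it was 0.054 (SE 0.030, adjusted p 0.44) and for Fgf7 0.0060 (SE 0.012, adjusted p 0.80). Limma called 0 of the 479 genes for sex, 0% of the table, and 14.4% (69 genes, Clec11a among them) had an unadjusted p under 0.05.

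In WT, Igfbp3 was higher in each male (1.74 to 2.07) than in each female (1.12 to 1.54), and in mutants the sexes overlapped (2.71 to 3.12 in males, 2.77 to 3.33 in females). The ratio of mutant to WT means was thus 2.16 in females and 1.56 in males. The test of that difference between the sexes, the interaction of genotype and sex in limma, gave a difference, males minus females, of -0.12 on log2(FPKM + 5) (SE 0.051) with an adjusted p of 0.96 and an unadjusted p of 0.046. For Fgf7 the ratio was 3.81 in females and 3.26 in males, and for Clec11a 1.39 and 1.49, with adjusted p-values of 0.997 and 0.962 from limma for the interaction. Limma called 0 of the 479 genes for the interaction, 0%, and 3.13% (15 genes) had an unadjusted p under 0.05.

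Whether the genes rose and fell together from mouse to mouse was examined within each genotype, since the genotypes form separate clusters. In the mutants, Fgf7 and Igfbp3 had a Pearson r of 0.80 and a Spearman rho of 0.83 over 6 mice. AMDKO_220 and AMDKO_203 were the lowest for both genes. Exact permutation over all 720 pairings, two-sided, gave p = 0.063 and p = 0.058, or 0.32 and 0.31 after adjustment over 6 relations. Without these 2 mice, the farthest from the Fgf7 median, the r was 0.27 over the 4 left, whose range of Fgf7 is narrower by construction. It was 0.75 without AMDKO_220 alone and 0.71 without AMDKO_203 alone. AMDKO_203 and AMDKO_220 also had the shallowest mutant libraries, 19.3 and 20.5 M reads against 21.1 to 23.8 M reads in the others, and the part of depth was not tested.

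In WT, female WT_213 was the lowest and male WT_210 the highest for both Fgf7 and Igfbp3, and the r was 0.64 and the rho 0.77 (exact permutation p = 0.16 and 0.10, adjusted 0.32 and 0.31). Without both of these mice, the farthest from the Fgf7 median, the r was -0.16 over the 4 left, again with a narrower range by construction, and it was 0.32 without WT_213 alone and 0.46 without WT_210 alone. Male WT_210 was also the highest WT mouse for Clec11a. For Igfbp3 and Clec11a the r was 0.67 in WT (rho 0.60, exact permutation p = 0.15 and 0.24, adjusted 0.32 and 0.48), and it was 0.42 without male WT_210 and 0.52 without WT_213 and WT_210, the 2 farthest from the Igfbp3 median. In mutants the r of this pair was 0.14 and the rho 0.029 (exact permutation p = 0.83 and 1, adjusted 0.96 and 1), and the r was 0.63 without AMDKO_231 and AMDKO_203, the 2 farthest from the Igfbp3 median. For Fgf7 and Clec11a the r was 0.29 in WT (rho 0.49, exact permutation p = 0.52 and 0.36, adjusted 0.78 and 0.53) and 0.033 in mutants (rho -0.029, exact permutation p = 0.96 and 1, adjusted 0.96 and 1), and without the 2 mice farthest from the Fgf7 median -0.39 and -0.020. None of the 6 relations passed an adjusted p of 0.05.

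**Figure D3:**
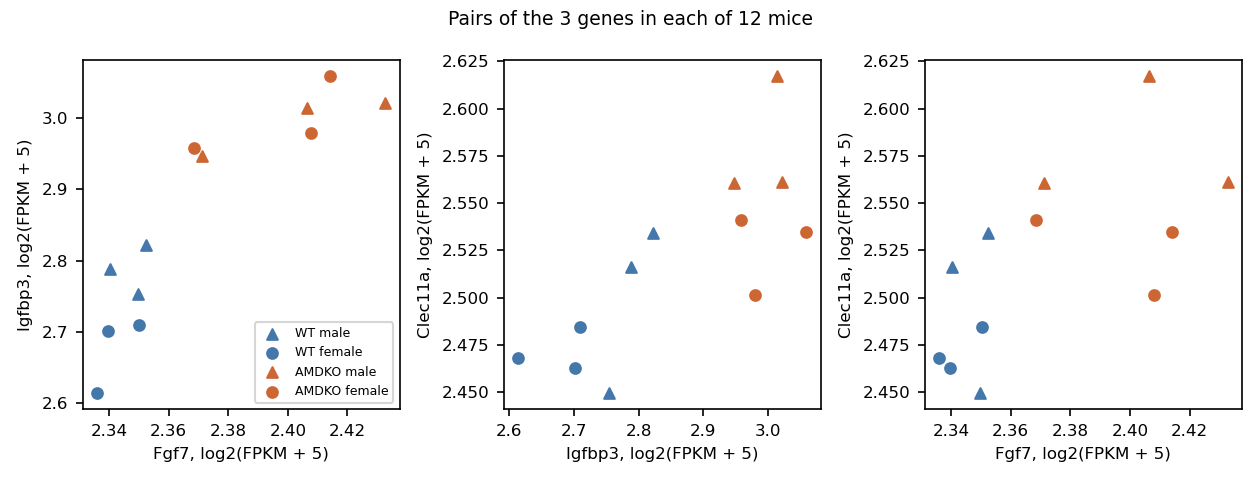
Each pair of the 3 genes on log2(FPKM + 5) axes, 1 point per mouse, WT in blue and Axl-/-Mertk-/- (AMDKO) in orange, circles for females and triangles for males. The genotypes form separate groups along Fgf7 and Igfbp3. In mutants the r of Fgf7 and Igfbp3 was 0.80 (exact permutation, adjusted p = 0.32). Without the 2 mice farthest from the Fgf7 median it was 0.27. The r with Clec11a was 0.033 for Fgf7 and 0.14 for Igfbp3 (exact permutation, adjusted p = 0.96 for both). For Igfbp3 and Clec11a it was 0.63 without the 2 mice farthest from the Igfbp3 median. With 6 mice, neither a relation nor its absence was shown for any of these pairs.

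Genes whose values followed each member most closely were looked for among the genes with a mean of at least 1 FPKM, by Pearson r over the 12 mice after the mean of each genotype was taken away. These r are descriptions over mice that share a library for both genes, and picking the highest of many raises them. For Clec11a the highest were Dhrs7, a dehydrogenase of the short-chain family (0.84), Ackr4, a receptor that scavenges chemokines (0.77), and P2ry12, an ADP receptor (0.76). The r of Dhrs7 was 0.79 within WT and 0.87 within mutants, and that of Ackr4 0.81 and 0.74. These values are parts of the r that picked Dhrs7 and Ackr4, so they are no further check of it. Both were higher in mutants, Dhrs7 with 5.75 ± 1.16 FPKM against 3.35 ± 0.620 in WT and Ackr4 with 4.59 ± 0.826 against 2.25 ± 0.639 (SD, n = 6). P2ry12 was lower, 1.34 ± 0.243 against 2.22 ± 0.187, so its r with Clec11a within genotypes went against the direction between them. For Igfbp3 the highest were Cxcl11, a chemokine (0.67), Emcn, a glycoprotein of venous and capillary endothelium (0.62), and Ptgs1, the constitutive cyclooxygenase (0.62). For Fgf7 they were Tgm1, a transglutaminase (0.69), Ckmt1, a mitochondrial creatine kinase (0.59), and Trem2, a lipid receptor of macrophages (0.59). The authors count Tgm1 among genes enriched in or specific to red pulp macrophages of the spleen. As for P2ry12, the leading genes of the other two members were lower in mutants while the member was higher, Cxcl11 at 61.6% of its WT mean and Tgm1 at 47.5%, and so was Ptgs1 at 51.0%. Emcn, Ckmt1 and Trem2 were higher, at 159.0%, 195.5% and 202.8%. The r with Fgf7 in mutants and in WT was 0.78 and 0.38 for Tgm1, 0.72 and -0.24 for Ckmt1, and 0.65 and 0.22 for Trem2. Ckmt1 lies 7.34 Mb from Mertk.

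Fgf7 differs from the other two in its position. It spans chr2:126034658-126091185 on mm10 (GENCODE vM21), on the plus strand and 2.61 Mb from Mertk. Igfbp3 lies on chr11:7206086-7213923, on a chromosome with neither mutated gene. Clec11a lies on chr7:44302687-44306902, 18.5 Mb from Axl. A targeted allele is inherited with the DNA around it. In all 6 mutants a stretch around Mertk that may differ in sequence from WT therefore goes with the genotype. For Fgf7 an effect of lost Mer and an effect of linked sequence cannot be told apart. A stretch around Axl goes with the genotype in the same way, and whether it reached as far as Clec11a was not tested. Fgf7 lies within the span of Fam227b, a gene on the opposite strand, with which it shares 0 exon bases, and the other two overlap no annotated gene.

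The nearest genes of the table on either side of Fgf7 were lower in mutants, while Fgf7 was higher. Sema6d, a semaphorin 1.37 Mb before it, was at 70.8% of its WT mean, and Kcnip3, a calcium-binding partner of potassium channels 1.37 Mb after it, at 55.3%. Within 10 Mb of Mertk the table held 32 genes, 15 lower and 17 higher in mutants (53.1% higher, against 34.7% in the whole table), so Fgf7 was 1 of 17. Genes farther out on this side split the mutants, as was seen after the values were known. Jmjd7, 8.67 Mb from Mertk, was 1.602 FPKM in AMDKO_219 and 0.762 in AMDKO_231 but 4.18 to 4.98 in the other 4, and 5.87 to 7.32 in WT. The Fgf7 values of 0.307 in AMDKO_219 and 0.330 in AMDKO_231 lay inside the range of the other 4 (0.164 to 0.399). Fgf7 lies closer to Mertk than Jmjd7 does, so nothing is read from this, and an effect of linked sequence was not tested. The table's gene nearest to Igfbp3 was Ccdc88a, 22.2 Mb away and at 61.2% of WT. Those beside Clec11a were Zfp619 (4.76 Mb, 69.0%) and Tph1 (2.34 Mb, 31.9%). Each named neighbour of the 3 genes was thus lower in mutants, as were 313 of the 479 genes of the table. Within 20 Mb of Axl the table held 7 genes, Clec11a included, 5 lower and 2 higher.

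**Figure D4:**
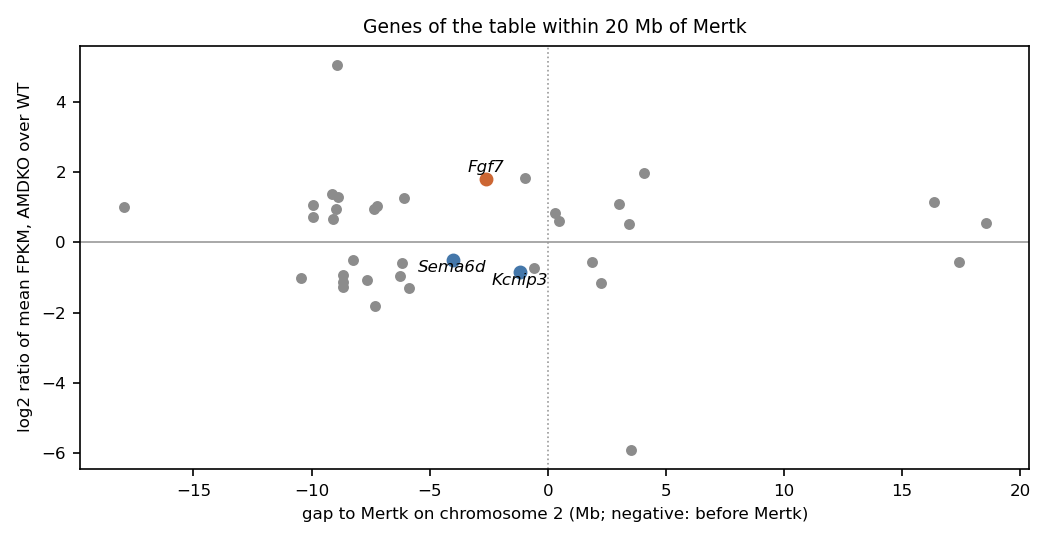
Log2 ratio of mean FPKM, Axl-/-Mertk-/- (AMDKO) over WT, against the gap to Mertk in Mb for each gene of the table within 20 Mb, with Fgf7 in orange and its neighbours in blue. Fgf7 stands at 1.81 between Sema6d and Kcnip3, which are both under 0, and genes on both sides of 0 surround it.

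The rest of each pathway was mostly outside the table, which lists selected genes, so a missing gene says nothing of its level. Of 21 genes of the FGF family, its receptors, binding proteins and feedback targets, the table held 2, Fgf7 and 1 more. This was Fgfbp3, a secreted carrier that binds FGFs, with 1.46 ± 0.10 FPKM in WT and 2.13 ± 0.580 in mutants (SD, n = 6) and overlapping groups. Of 19 genes of the insulin-like growth factor axis it also held 2. Igfbp2, a second carrier of these factors, was 2.67 ± 0.694 in WT and 5.42 ± 1.86 in mutants, with no overlap. Of 27 haematopoietic and stromal cytokines and receptors it held Clec11a and Vegfa, the growth factor of vessels, which was 3.07 ± 0.351 in WT and 4.47 ± 0.478 in mutants with no overlap. The 3 genes beside the members, Fgfbp3, Igfbp2 and Vegfa, were each higher in mutants with an adjusted p under 0.05 in limma, beside 33.2% of the table, and since the table itself lists genes that differ between these mice, nothing is read from this count.

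Markers of the stromal cells that make such factors did not move one way. Of 29 markers of fibroblasts and mesenchyme the table held 6, of which 4 were higher and 2 lower (33.2% and 61.8% of the table), with a median log2 ratio of 0.59. Cd248, a surface protein of stromal fibroblasts, was 0.287 ± 0.212 FPKM in WT and 0.525 ± 0.0875 in mutants. Mmp13, a collagenase, was 0.228 ± 0.0487 and 0.395 ± 0.110. Acta2, the actin of smooth muscle and myofibroblasts, was 5.53 ± 1.33 and 8.81 ± 0.904 (SD, n = 6), and the groups overlapped for each of the 6. Pdgfra, a receptor that defines thymic mesenchyme and is named here with its value known, was lower, 0.509 ± 0.0765 in WT and 0.352 ± 0.0980 in mutants. Summed over the 6 markers, the level was 17.3 to 31.2 FPKM in WT and 31.5 to 35.1 in mutants, most of it from the smooth muscle gene Tagln (15.7 ± 4.58 and 22.3 ± 1.35, named with its value known). The table held 2 of 15 endothelial and pericyte markers, both higher, beside 34.7% of the table. Emcn was at 1.05 ± 0.249 and 1.67 ± 0.388, and Tie1, a receptor of endothelium, at 0.643 ± 0.142 and 0.903 ± 0.170. Their summed range was 1.09 to 1.98 in WT and 1.79 to 3.15 in mutants. Of 11 adipocyte and mesothelium markers it held Lrrn4, which was 0.273 ± 0.10 in WT and 1.08 ± 0.133 in mutants and lies 4.07 Mb from Mertk. Of 17 macrophage markers it held 12, of which 9 were lower, such as Axl and the haemoglobin scavenger receptor Cd163 (0.664 ± 0.176 in WT and 0.118 ± 0.0442 in mutants), and 3 higher, such as Gpnmb, a glycoprotein of lipid-laden macrophages (1.498 ± 0.474 and 4.71 ± 1.46), with a summed range of 153.9 to 238.1 FPKM in WT and 90.1 to 140.3 in mutants. The part of these cell types in the values of Fgf7, Igfbp3 and Clec11a was not tested.

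**Figure D5:**
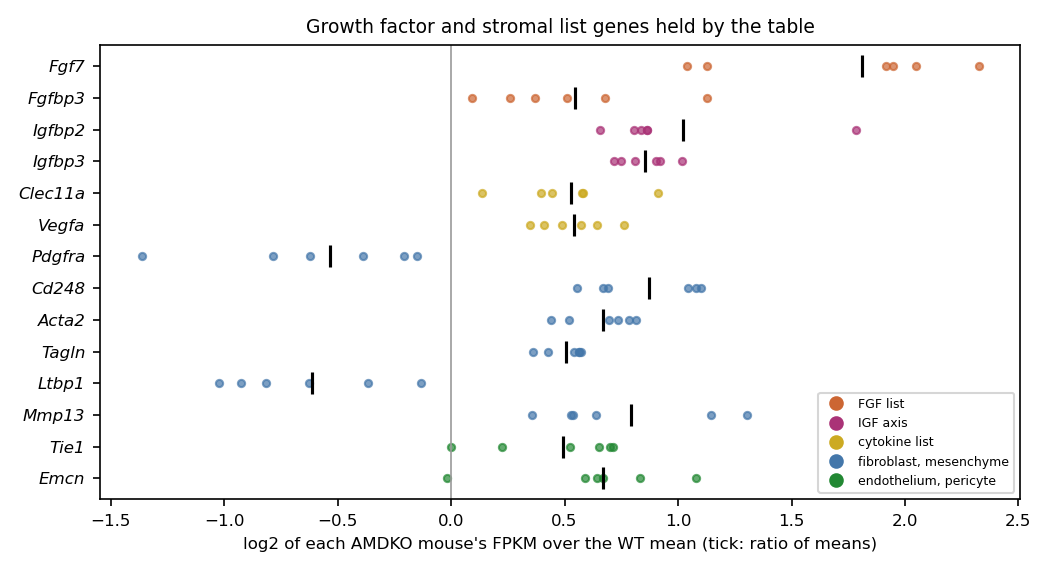
Log2 of the FPKM of each Axl-/-Mertk-/- (AMDKO) mouse over the WT mean, 1 dot per mouse, for the growth factor, fibroblast and endothelial list genes that the table holds, with a tick at the ratio of means. Fgf7 lies farthest to the right (1.81), and among the fibroblast markers Pdgfra and Ltbp1 lie under 0.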

How the data were processed

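Total RNA of the thymus of 12 mice was made into stranded mRNA libraries from 500 ng and read for 50 bases from one end. Per the labels and methods, the authors used CASAVA 1.8.2, FastQC, STAR 2.5.3a on mm10 and HOMER 4.10.4, and gave exon reads of each gene's top isoform as FPKM. The deposited table holds log2(FPKM + 5) of 479 genes in 12 columns, 1 per mouse, and the rule that selected the genes is not given in the sources used here. FPKM was recovered by undoing the logarithm. As the genes were selected on these mice, adjustment over the 479 is not adjustment over the genome.

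Groups came from the sample labels. Genotype, sex and their interaction were fitted with limma 3.58.1 in R 4.3.3 on log2(FPKM + 5) with Benjamini-Hochberg adjustment. The fit and the depth estimate were tested on simulated data. Pairs of genes were compared within each genotype with two-sided exact permutation tests (720 pairings, Benjamini-Hochberg over 6). Correlations across the table and lists of genes are descriptions. Other steps used Python 3.11.15 (pandas 2.3.3, numpy 2.4.6, matplotlib 3.10.9, scipy 1.17.1).

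Depth was found as the number of reads that turns low FPKM into whole reads. A transcript length was then fitted for each gene, 2677 bases for Fgf7, 2446 for Igfbp3 and 1959 for Clec11a, at which all its values lay within 0.029 of a whole number of reads. The transcripts of GENCODE vM21 that match RefSeq have 2672, 2421 and 2978 bases, so the length used for Clec11a differs from that annotation, in which 472 of the 479 symbols were placed.

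The members and lists were chosen with earlier results of these data known. Named genes are the 3 members, Axl, and every FGF, IGF and cytokine list gene that the table holds. From each other list they are the 3 genes with the largest absolute log2 ratio of means. The 3 genes most like each member and its nearest neighbour on each side are named as well. Alternatives were constants of 1 and 0.1, a minimum mean of 1 FPKM, an intensity trend in limma, no sex covariate, each sex alone, Spearman's rho, values centred on sex, leaving out the 2 farthest mice, and leaving out each mouse in turn.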

Additional observations from a re-analysis of the deposited data

How the results depend on the processing

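The direction of each member between genotypes was kept under every alternative run for it, each sex alone included. For Fgf7 and Igfbp3 no alternative could have reversed it, since every mutant lay above every WT mouse. All members were chosen by this difference, so nothing is read from its direction being kept. The size depended on the constant in the logarithm, with a difference for Fgf7 of 0.24 with a constant of 1 and 1.05 with 0.1, for Igfbp3 of 0.60 and 0.84, and for Clec11a of 0.22 and 0.47. A larger constant shrinks the difference of a low gene by its construction. Genes of the table past both thresholds came to 57 lower and 51 higher with a constant of 1, and 244 and 141 with 0.1, against 15 and 14 with 5. With a minimum mean of 1 FPKM, Fgf7 and Clec11a leave the table, so that alternative gives no value for either.

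No sex term, interaction or correlation of the members passed an adjusted p of 0.05 under any alternative run, so the changes of sign below are among values near 0 or over few mice, and their cause was not tested. The interaction for Fgf7 was -0.077 with a constant of 0.1, and the correlation of Fgf7 and Igfbp3 in WT was -0.16 and that of Fgf7 and Clec11a in WT -0.39 without the 2 mice farthest from the Fgf7 median, which narrows the range by construction. That of Fgf7 and Clec11a in mutants was -0.029 by rank, -0.12 when centred on sex and -0.020 without the 2 mice farthest from the Fgf7 median. When each mouse was left out in turn, the sex term of Fgf7 ranged from -0.00053 to 0.013 and its interaction from -0.014 to 0.017. The correlation of Fgf7 and Clec11a ranged from -0.19 to 0.61 in WT and from -0.12 to 0.18 in mutants, that of Igfbp3 and Clec11a from 0.42 to 0.90 in WT and from -0.053 to 0.45 in mutants, and that of Fgf7 and Igfbp3 from 0.32 to 0.87 in WT and from 0.71 to 0.91 in mutants. Genes of the table called for sex were 0 to 6, with 6 without male WT_210, and for the interaction 0 to 7, with 7 without female AMDKO_220. No paired analysis was possible because each mouse carries its own number.

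Depth limits Fgf7 most, with 3 to 7 reads in each WT mouse. Clec11a had 21 to 47 reads per mouse. With 6 mice and 6 relations, moderate correlations could not be told from 0.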
